A study of Mus musculus with 4 samples.

Results

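Transcripts of 10 mouse genes for making and desaturating fatty acids were compared between tumor macrophages given MEK1-hi exosomes and those given MEK1-low exosomes. The set holds Srebf1, which encodes the transcription factor SREBP1, and 9 enzymes: Acly, Acaca, Fasn, Elovl5, Elovl6, Scd1, Scd2, Fads1 and Fads2. The genes were chosen by name and found through their Ensembl identifiers, 1 locus each, among 53139 loci of the authors' table. All 10 were among the 12648 loci that the authors had tested with Cuffdiff, so no gene was lost to a filter on low values.

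The cells were wild type (WT) by their label and were derived from tumours of the MCA fibrosarcoma line 9609 parent. After treatment in culture with exosomes, the small vesicles that cells release, RNA was sequenced from 2 samples with MEK1-hi exosomes and 2 samples with MEK1-low exosomes. The MEK1-low label also carries the word GFP, so the MEK1 content of the exosomes and that GFP difference cannot be told apart. All samples came from the 1 tumour line, there were no cells without exosomes among them, and the labels do not say whether samples of a group were separate cultures.

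Macrophages build fatty acids in the cytosol from citrate. ATP citrate lyase releases acetyl-CoA, acetyl-CoA carboxylase turns it into malonyl-CoA, and fatty acid synthase condenses these into palmitate. Elongases lengthen palmitate and dietary fatty acids, and desaturases place double bonds in them. SREBP1 is made as a membrane protein of the endoplasmic reticulum, is carried to the Golgi by SCAP, is cut there, and then switches on these enzymes. INSIG proteins hold the SCAP complex back, and SREBP2, its relative, mainly drives cholesterol synthesis.

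Each level below is the authors' single value per group in FPKM, a unit scaled to transcript length and library size. No spread between samples could be computed from them, and the depth of each sample is unknown. A gene was called changed where the q-value in the authors' deposited table was under 0.05. Log2 fold changes are for MEK1-hi over MEK1-low. Of the loci tested, 2.44% were called, with 0.751% higher and 1.69% lower. The authors' p-values reflect no more than the spread among these samples, possibly a technical one.

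Among the 10 genes, Scd2 rose and no other gene was called. Scd2, a stearoyl-CoA desaturase that makes monounsaturated from saturated fatty acids, was 1.63-fold higher with MEK1-hi exosomes. The regulator Srebf1 and the enzymes from Acly to palmitate did not pass the test, and neither did the elongases. Fads2, the desaturase that starts the polyunsaturated pathway, had the lowest fold change, 0.440, and missed the threshold after adjustment (q = 0.147 in the authors' deposited table). The share called, 1 of 10 beside 2.44% of all loci tested, rests on Scd2 alone. Values were higher in 3 genes and lower in 7.

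**Figure D1:**
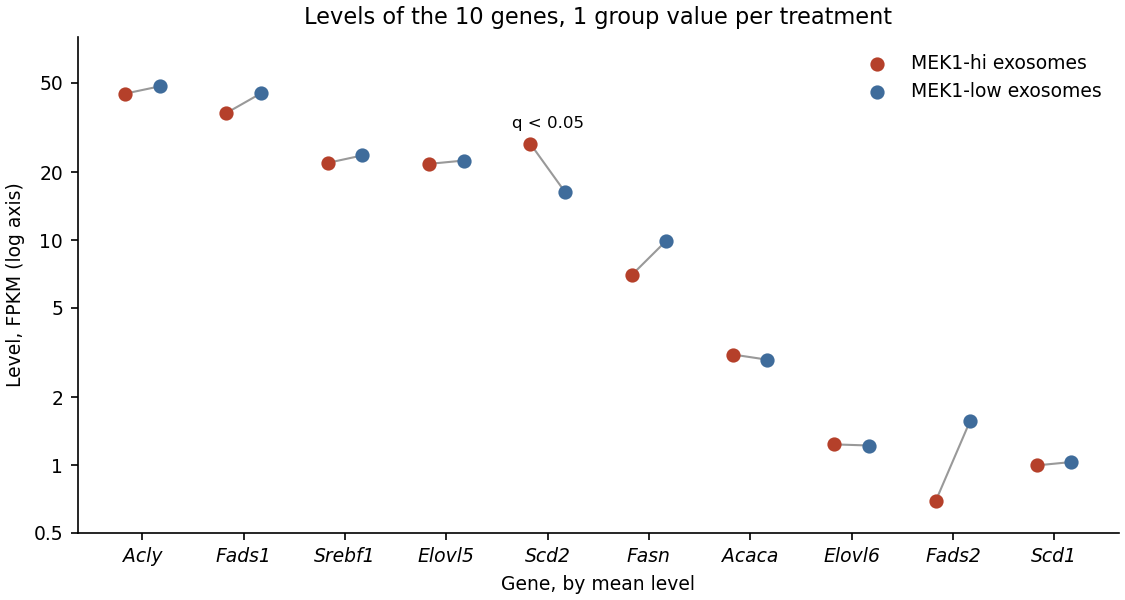
Level of each of the 10 genes in FPKM on a log axis, with 1 point per group (MEK1-hi left, MEK1-low right) joined by a line. There are no error bars, since the authors' table gives 1 value per group. Scd2 stands at 26.8 FPKM with MEK1-hi and 16.4 FPKM with MEK1-low exosomes, Fads2 at 0.692 FPKM with MEK1-hi and 1.57 FPKM with MEK1-low exosomes, and most other lines are close to level.

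The level of Srebf1 (chromosome 11, 60199089 to 60222581, mm10) was 22.0 FPKM with MEK1-hi and 23.8 FPKM with MEK1-low exosomes. The log2 fold change of -0.11 was not called (p = 0.644 and q = 0.999 in the authors' deposited table). The gene has 12 annotated transcripts, and RefSeq lists 3 separate starts for it. The known isoforms SREBP1a and SREBP1c begin at different first exons, and the single locus value does not separate them. Transcript levels also do not measure how much SREBP1 is cut and active.

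Of the other genes that handle or accompany SREBP, 18 of 20 listed were tested, and 3 fell while 0 rose. That is 16.7% called, beside 1.69% called lower and 0.751% called higher of all loci tested. A rise was thus the rarer call over the whole set of loci too. Insig1, which retains SCAP and is itself induced by SREBP, stood at 10.04 FPKM with MEK1-hi and 18.3 FPKM with MEK1-low exosomes. It fell by 0.87 on the log2 scale (q = 0.00349 in the authors' deposited table). Srebf2 fell by 0.92 on the log2 scale, to 17.4 FPKM with MEK1-hi against 32.8 FPKM with MEK1-low exosomes (q = 0.00349 in the authors' deposited table). Nr1h3 encodes LXR alpha, a sterol receptor known to induce Srebf1. It was at 43.7 FPKM with MEK1-hi and 63.1 FPKM with MEK1-low exosomes and also fell (q = 0.0305 in the authors' deposited table). The loci of Srebf2 and Nr1h3 each join a predicted gene whose reads cannot be told apart from theirs, and without joined loci Insig1 alone was called. Over the tested genes the median was -0.04 in log2 fold change, with 8 values higher and 10 lower.

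By the single group values, the order of Srebf1 and the joined Srebf2 locus differed between the groups. The Srebf1 value was 1.27 times that of the Srebf2 locus with MEK1-hi exosomes and 0.724 times with MEK1-low exosomes. Without values per sample, the 2 cannot be said to differ in level within a group. Whether their changes differ from each other was not tested. The carrier gene Scap stood at 12.8 FPKM with MEK1-hi and 11.3 FPKM with MEK1-low exosomes. Insig2 was at 20.8 FPKM with MEK1-hi and 21.8 FPKM with MEK1-low exosomes. The Golgi protease gene Mbtps1 was at 21.4 FPKM with MEK1-hi and 21.7 FPKM with MEK1-low exosomes. The locus of its partner Mbtps2, which also holds Yy2, was at 13.2 FPKM with MEK1-hi and 13.1 FPKM with MEK1-low exosomes. These 4 were named for their roles after their values were seen, and none was called, with q = 0.999 for each in the authors' deposited table. By the mean of both group levels, the locus of Rnf139 and Nr1h2, which encodes LXR beta, were the highest of this list. Nr1h2 was at 54.7 FPKM with MEK1-hi and 57.0 FPKM with MEK1-low exosomes. The Rnf139 locus, at 143 FPKM with MEK1-hi and 162 FPKM with MEK1-low exosomes, also holds the respiratory chain gene Ndufb9. Both had q = 0.999 in the authors' deposited table.

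The 3 enzymes from citrate to palmitate had very different levels and none was called by Cuffdiff. Acly, the ATP citrate lyase gene (chromosome 11, 100476353 to 100528000), was the highest of the 10, at 44.7 FPKM with MEK1-hi and 48.2 FPKM with MEK1-low exosomes (q = 0.999 in the authors' deposited table). Acaca, the gene for acetyl-CoA carboxylase of the cytosol (chromosome 11, 84129672 to 84401651), was at 3.10 FPKM with MEK1-hi and 2.94 FPKM with MEK1-low exosomes (q = 0.999 in the authors' deposited table). Fasn, the fatty acid synthase gene (chromosome 11, 120805846 to 120824547), was at 6.99 FPKM with MEK1-hi and 9.91 FPKM with MEK1-low exosomes. The Fasn value was 29.5% lower with MEK1-hi exosomes, or -0.50 in log2 fold change, and did not pass (p = 0.203 and q = 0.968 in the authors' deposited table). The Acly level was 6.40 times that of Fasn with MEK1-hi and 4.86 times with MEK1-low exosomes. At an unadjusted p under 0.05, 0 of these 3 enzymes passed, beside 447 higher and 648 lower of all 12648 loci tested. With 3 genes, a count of 0 does not set them apart from other loci.

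The Acaca level is uncertain in itself. Of the 100-base windows in its annotated transcripts, 100 bases being the read length, 23.7% also stand letter for letter in transcripts of the predicted genes Gm5182 and Gm42553. Gm5182 was listed at 3.51 FPKM with MEK1-hi and 3.26 FPKM with MEK1-low exosomes, close to Acaca. For Srebf1, Acly, Fasn, Elovl5, Fads1 and Fads2 the share was 0%.

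Genes linked to the supply of acetyl-CoA and NADPH to this route were listed separately. Not all of them encode enzymes that make either. Of the 10 tested, 1 fell and 0 rose, beside 1.69% called lower and 0.751% called higher of all loci tested. Pcx, the pyruvate carboxylase gene, was at 1.15 FPKM with MEK1-hi and 4.37 FPKM with MEK1-low exosomes, or -1.92 in log2 fold change (q = 0.00636 in the authors' deposited table). By the mean of both group levels, the highest were Pgd and G6pdx, enzymes of the pentose phosphate pathway that make NADPH. Pgd stood at 571 FPKM with MEK1-hi and 674 FPKM with MEK1-low exosomes, and G6pdx at 127 FPKM with MEK1-hi and 133 FPKM with MEK1-low exosomes. Neither was called (q = 0.847 and q = 0.999 in the authors' deposited table). Over this list the median was -0.11 in log2 fold change, with 4 values higher and 6 lower. Pcx, its called gene, stands below 5 FPKM in both groups.

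A further pair of genes of this list passed at an unadjusted p under 0.05 only, and are named after their values were seen. Of all 12648 loci tested, 447 were higher and 648 lower at that threshold. Acss2, which makes acetyl-CoA from acetate, was at 9.60 FPKM with MEK1-hi and 17.9 FPKM with MEK1-low exosomes (p = 0.00705, q = 0.175 in the authors' deposited table). Me1, the malic enzyme of the cytosol that makes NADPH, was at 2.27 FPKM with MEK1-hi and 3.67 FPKM with MEK1-low exosomes (p = 0.00405, q = 0.118 in the authors' deposited table). Both values were lower with MEK1-hi exosomes, as was that of Pcx. Slc25a1, the carrier that exports citrate from mitochondria, is named for its role after its values were seen. It stood at 33.7 FPKM with MEK1-hi and 37.4 FPKM with MEK1-low exosomes (q = 0.999 in the authors' deposited table).

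Promoters are shown for Fasn and Fads2, the enzymes with the lowest fold changes among the 7 genes that had a promoter in the RefSeq table (GRCm38.p6, which has the coordinates of mm10). This choice was made after their values were seen. Each window runs from 250 bases before to 50 bases after the RefSeq start, on the minus strand, 5′ to 3′. That start need not be the outer end of the annotated gene. The Fads2 window lies almost wholly inside the gene as annotated (chromosome 19, 10062765 to 10101746). Capitals mark the NF-Y box CCAAT in Fasn (ATTGG on the opposite strand) and the Sp1 box GGGCGG in Fads2. The Fasn window is chr11:120824498-120824797 and the Fads2 window is chr19:10101454-10101753.
Fasn: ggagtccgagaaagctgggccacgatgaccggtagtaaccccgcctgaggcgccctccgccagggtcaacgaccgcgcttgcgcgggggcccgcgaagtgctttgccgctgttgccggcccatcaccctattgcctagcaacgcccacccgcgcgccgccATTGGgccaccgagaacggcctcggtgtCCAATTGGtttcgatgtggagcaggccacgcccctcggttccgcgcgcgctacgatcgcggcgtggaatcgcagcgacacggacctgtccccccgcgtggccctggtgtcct
Fads2: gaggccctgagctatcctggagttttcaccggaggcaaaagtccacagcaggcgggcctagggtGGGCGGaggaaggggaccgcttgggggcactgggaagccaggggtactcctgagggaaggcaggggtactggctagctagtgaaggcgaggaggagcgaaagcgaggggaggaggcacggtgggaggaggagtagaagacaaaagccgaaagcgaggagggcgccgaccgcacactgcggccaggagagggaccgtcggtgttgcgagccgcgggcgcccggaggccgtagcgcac

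The Fasn window held 3 matches to CCAAT, 1 on the same strand and 2 on the opposite strand, of which 2 overlapped. The Fads2 window held 1 match to GGGCGG, from position -186 to -181 relative to the start. Over both strands of the 9 windows of the 7 genes, CCAAT was found in 5 windows, those of Acly, Elovl5, Fasn and 2 of the 3 starts of Srebf1. It was in 37.4% of all 32851 promoters in the table. GGGCGG was found in 4 windows and in 35.7% of all promoters. The E-box CACGTG was found in 1 window, that of Elovl5, and in 7.15% of all promoters. The SREBP element TCACNCCAC was found in 0 of the 9 windows and in 1.24% of all promoters. The LXR element, sought as 2 copies of AGGTCA with 4 bases between, was in 0 of the 9 windows and in 0.0152% of all promoters. A window without a match says only that these letters are not in it. The Acaca window, chr11:84195188-84195487, held no match and lies inside the annotated gene (84129672 to 84401651), far from its outer start.

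Neither elongase was called. Elovl5, which lengthens polyunsaturated fatty acids (chromosome 9, 77917364 to 77984519), was at 21.8 FPKM with MEK1-hi and 22.5 FPKM with MEK1-low exosomes (log2 fold change -0.05, q = 0.999 in the authors' deposited table). Elovl6, which lengthens palmitate to stearate (chromosome 3, 129532355 to 129638495), was at 1.24 FPKM with MEK1-hi and 1.22 FPKM with MEK1-low exosomes (log2 fold change 0.02, q = 0.999 in the authors' deposited table). Elovl5 was thus 17.6 times as high as Elovl6 with MEK1-hi and 18.4 times with MEK1-low exosomes.

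A list of 19 further genes held those of elongation, desaturation and its electron carriers, besides Acacb, an acetyl-CoA carboxylase gene. Of the 19, 11 were tested, 1 fell and 0 rose, beside 1.69% called lower and 0.751% called higher of all loci tested. The one that fell was Cyb5a, which encodes cytochrome b5, an electron donor of stearoyl-CoA desaturases. It was at 379 FPKM with MEK1-hi and 616 FPKM with MEK1-low exosomes, or -0.70 in log2 fold change (q = 0.00349 in the authors' deposited table). Cyb5r3, the reductase that passes electrons to cytochrome b5, was at 90.02 FPKM with MEK1-hi and 118 FPKM with MEK1-low exosomes and passed at the unadjusted threshold only (p = 0.0088, q = 0.203 in the authors' deposited table). It is named for its role, after its values were seen. Elovl1, an elongase of very long chains and the next highest by level, was at 118 FPKM with MEK1-hi and 124 FPKM with MEK1-low exosomes (q = 0.999 in the authors' deposited table). The untested genes of this list were Elovl2, Elovl3, Elovl4, Elovl7, Scd3, Scd4, Fads6 and Acacb, all below 1 FPKM in both groups. Over the tested ones the median log2 fold change was -0.08, with 3 values higher and 8 lower.

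Among the stearoyl-CoA desaturases, Scd2 was the one gene called. Its level was 26.8 FPKM with MEK1-hi and 16.4 FPKM with MEK1-low exosomes, a difference of 10.4 FPKM and 0.71 in log2 fold change (p = 5e-05 and q = 0.00349 in the authors' deposited table). This p is the smallest in the table and was shared by 181 loci. The log2 fold change of Scd2 was above that of 96.2% of the loci tested. Scd1, the isoform known as the main one of liver and fat, was at 0.997 FPKM with MEK1-hi and 1.03 FPKM with MEK1-low exosomes (log2 fold change -0.05, q = 0.999 in the authors' deposited table). Scd3 was listed at 0.0117 FPKM with MEK1-hi and at 0 FPKM with MEK1-low exosomes. Scd4 was at 0.0941 FPKM with MEK1-hi and 0.0405 FPKM with MEK1-low exosomes, and neither of these was tested. Scd3 and Scd4 are named for their place in the cluster, after their values were seen.

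Scd2 therefore made up 96.04% of the summed level of the 4 Scd genes with MEK1-hi exosomes and 93.9% with MEK1-low exosomes. The sum itself was 27.9 FPKM with MEK1-hi and 17.5 FPKM with MEK1-low exosomes. The 4 genes lie side by side on chromosome 19 in the order Scd3, Scd2, Scd4 and Scd1, with Scd2 from 44293674 to 44306864 and Scd1 from 44394455 to 44407879. Exact sharing between them was small: 0.879% of the 100-base windows of Scd2 transcripts also stand in Scd1 or Scd3, and 2.58% of those of Scd1 stand in another gene. The Scd2 locus also holds the microRNA gene Mir5114, as that of Srebf1 holds Mir6922. Promoters of Scd1, Scd2 and Fads1 are not analysed here.

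**Figure D2:**
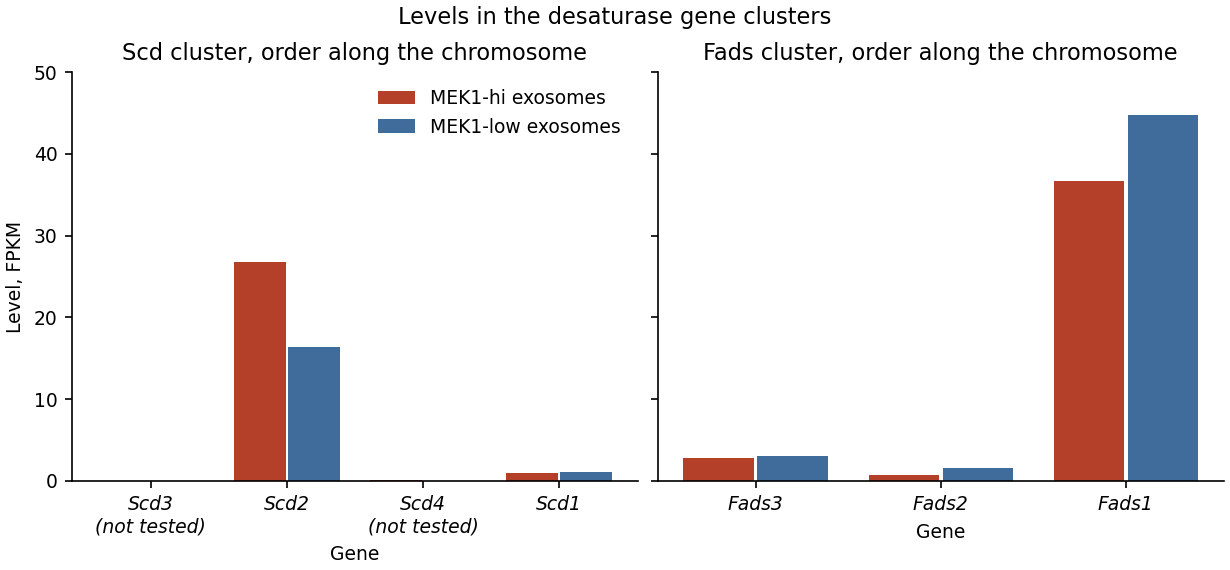
Level in FPKM, on a linear axis from 0, of the stearoyl-CoA desaturase genes (left panel) and the fatty acid desaturase genes (right panel) in their order along chromosome 19. Bars are the authors' single group values, MEK1-hi left and MEK1-low right, without error bars. Scd2 holds most of its cluster's level, at 26.8 FPKM with MEK1-hi and 16.4 FPKM with MEK1-low exosomes. Fads1 does so in the other, at 36.7 FPKM with MEK1-hi and 44.8 FPKM with MEK1-low exosomes.

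The desaturases of the polyunsaturated pathway had lower values with MEK1-hi exosomes, though neither was called. Fads1, which acts late in the pathway and yields arachidonate (chromosome 19, 10182888 to 10196877), was at 36.7 FPKM with MEK1-hi and 44.8 FPKM with MEK1-low exosomes. Its log2 fold change was -0.29 (p = 0.0528 and q = 0.592 in the authors' deposited table). Fads2 (chromosome 19, 10062765 to 10101746) was at 0.692 FPKM with MEK1-hi and 1.57 FPKM with MEK1-low exosomes. Its log2 fold change was -1.18, and it passed at the unadjusted threshold only (p = 0.00545 and q = 0.147 in the authors' deposited table). With the pseudocount of 1 FPKM used for medians, the Fads2 value was -0.60, since that scale understates changes of low genes. Fads1 was 53.02 times as high as Fads2 with MEK1-hi and 28.5 times with MEK1-low exosomes. Their neighbour Fads3, a relative in the same cluster that is likewise named after its values were seen, was at 2.85 FPKM with MEK1-hi and 3.07 FPKM with MEK1-low exosomes (q = 0.999 in the authors' deposited table).

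Seen as a set, the 10 genes spanned levels from 0.692 to 44.7 FPKM with MEK1-hi exosomes and from 1.03 to 48.2 FPKM with MEK1-low exosomes. Acly and Fads1 were first and second in both groups. Scd2 was the third with MEK1-hi and the fifth with MEK1-low exosomes, where Srebf1 and Elovl5 stood above it. Fads2 was the last with MEK1-hi and the eighth with MEK1-low exosomes. Without values per sample, neighbours in this order cannot be said to differ. On the log2(FPKM + 1) scale, the median log2 fold change of the 10 genes was -0.08, beside 0.00 over all loci tested. At an unadjusted p under 0.05, 1 gene was higher (Scd2) and 1 was lower (Fads2), beside 447 higher and 648 lower of all 12648 loci.

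The size of change that was called differed with level. Among tested loci with a mean of 20 to 50 FPKM, where Srebf1, Acly, Elovl5, Scd2 and Fads1 lie, the smallest called change was 0.48 in absolute log2 fold change, or 1.40-fold. From 5 to 20 FPKM, the range of Fasn, the smallest was 0.50, about the size of the Fasn difference, and 2.36% of loci were called. From 1 to 5 FPKM, the range of Acaca, Elovl6, Scd1 and Fads2, the smallest was 0.63 and the median of called changes was 1.16, with 1.74% called. The Fads2 difference of -1.18 was larger in size than that median and yet was not called. A difference that missed the threshold is therefore not shown to be absent, least of all for the genes near 1 FPKM.

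**Figure D3:**
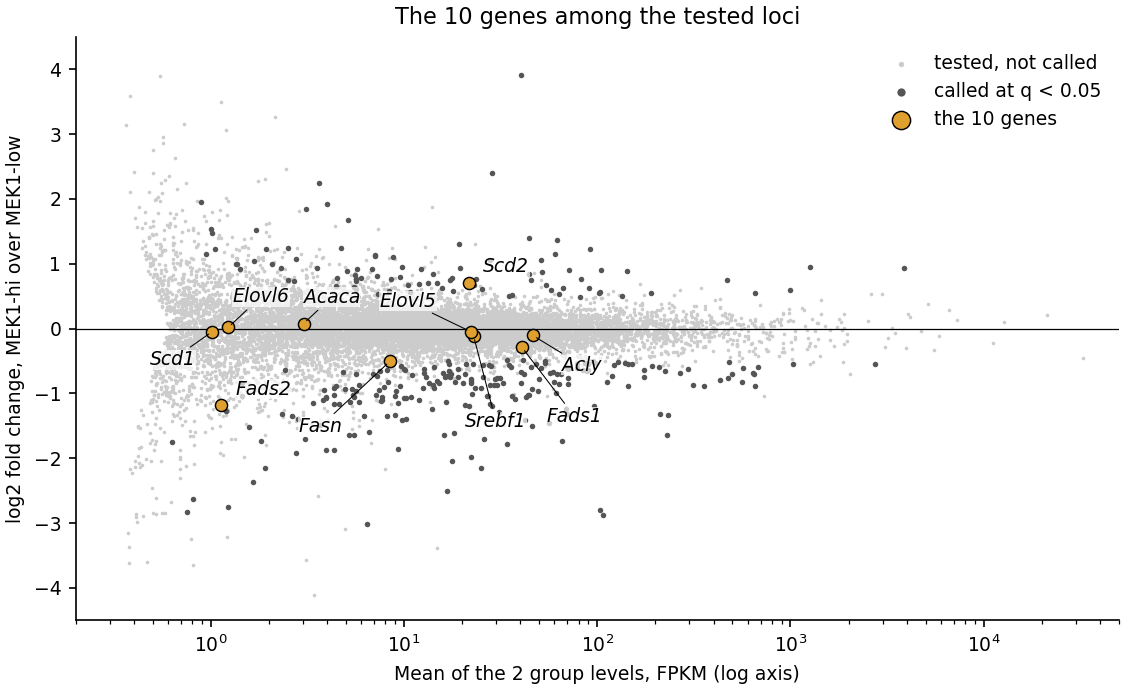
Log2 fold change of MEK1-hi over MEK1-low against the mean of both group levels in FPKM (log axis) for tested loci above 0 in both groups, with called loci in dark grey and the 10 genes in orange. Scd2, at 0.71, lies among the called loci, Fads2, at -1.18, lies low at about 1 FPKM, and the other 8 lie between -0.50 and 0.08.

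Steps that use fatty acids showed a few lower genes. Of 17 tested genes of fatty acid activation and glycerolipid assembly, 2 fell and 0 rose. That is 11.8% called, beside 1.69% called lower and 0.751% called higher of all loci tested. Acsl1, which couples fatty acids to CoA, was at 27.7 FPKM with MEK1-hi and 57.4 FPKM with MEK1-low exosomes and fell by 1.05 on the log2 scale (q = 0.00349 in the authors' deposited table). Agpat4, an acyltransferase that makes phosphatidic acid, was at 22.2 FPKM with MEK1-hi and 32.8 FPKM with MEK1-low exosomes and fell as well (q = 0.0135 in the authors' deposited table), though not at a q-value under 0.01. Acsl5, a relative of Acsl1, was at 44.5 FPKM with MEK1-hi and 50.4 FPKM with MEK1-low exosomes (q = 0.999 in the authors' deposited table). The locus of Pnpla3, at 50.9 FPKM with MEK1-hi and 46.4 FPKM with MEK1-low exosomes, joins Samm50, so its level is not that of Pnpla3. The median of this list was 0.03 in log2 fold change, with 9 values higher and 8 lower.

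Neither beta-oxidation, which breaks fatty acids down, nor fatty acid synthesis inside mitochondria held a called gene. Cuffdiff called 0 of 17 and 0 of 6 tested, beside 2.44% of all loci tested. At an unadjusted p under 0.05 the counts were also 0 and 0, beside 447 higher and 648 lower of all 12648 loci tested. Lists this short could hold 0 at such shares without differing from other loci. The medians were -0.04 and 0.01 in log2 fold change. Cpt1a, the gatekeeper of fatty acid entry into mitochondria, was at 45.6 FPKM with MEK1-hi and 42.4 FPKM with MEK1-low exosomes. It was named for its role after its values were seen. The highest values of these lists came from joined loci. The locus of Acads with Rpl37rt was at 1411 FPKM with MEK1-hi and 1324 FPKM with MEK1-low exosomes. That of Etfb with Vsig10l and others was at 88.9 FPKM with MEK1-hi and 83.98 FPKM with MEK1-low exosomes. That of Hsd17b8 with Slc39a7 was at 103 FPKM with MEK1-hi and 105 FPKM with MEK1-low exosomes. Ndufab1, the acyl carrier protein of mitochondria, was at 25.7 FPKM with MEK1-hi and 24.2 FPKM with MEK1-low exosomes. Acsf3 is not analysed here.

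**Figure D4:**
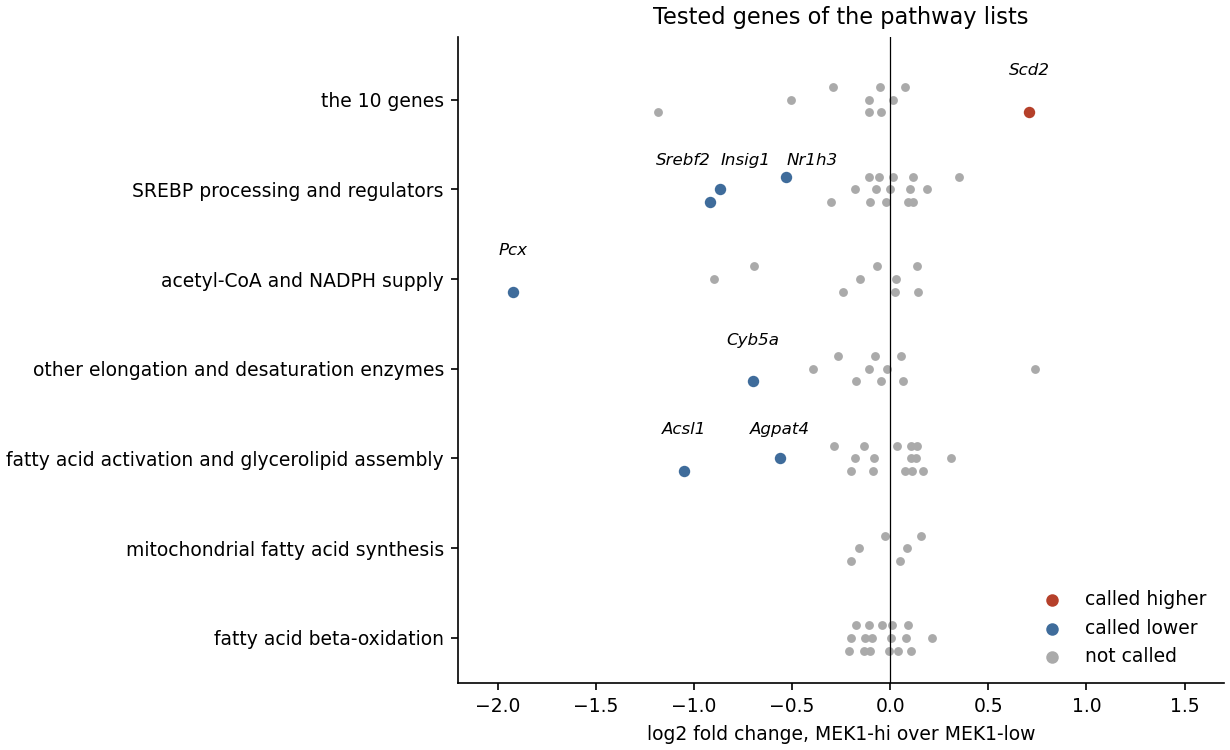
Log2 fold change of MEK1-hi over MEK1-low for each tested gene of the 10 and of 6 pathway lists, 1 point per gene, with points offset vertically so that they can be seen. Red marks genes called higher and blue genes called lower at a q-value under 0.05. Scd2 at 0.71 is the only red point, and the 7 blue points run from -1.92 (Pcx) to -0.53 (Nr1h3).

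Macrophage markers were high in both groups, and 0 of 7 were called by Cuffdiff, beside 2.44% of all loci tested. They ranged from 48.02 to 13148 FPKM with MEK1-hi and from 47.5 to 12303 FPKM with MEK1-low exosomes. Of 4 adipocyte markers, whose cells also make fatty acids, 3 were at 0 in both groups and the sums were 0 FPKM with MEK1-hi and 0.0880 FPKM with MEK1-low exosomes. The 6 fibroblast or sarcoma cell markers summed to 4.47 FPKM with MEK1-hi and 5.63 FPKM with MEK1-low exosomes. The 4 neutrophil markers summed to 22.6 FPKM with MEK1-hi and 35.5 FPKM with MEK1-low exosomes, all of it from S100a8, with S100a9, Ly6g and Mpo at 0 in both groups. T cell, B cell, endothelial and dendritic cell markers stayed below 1 FPKM each. The 3 epithelial markers summed to 4.10 FPKM with MEK1-hi and 6.54 FPKM with MEK1-low exosomes. Nearly all of each sum came from its highest marker, at 4.05 FPKM with MEK1-hi and 6.48 FPKM with MEK1-low exosomes. The part of other cells in the results was not tested. In such bulk samples, fewer cells of a type and less RNA per cell cannot be told apart.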

How the data were processed

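RNA was taken up in TRIzol and sequenced as 100-base pairs from stranded mRNA libraries, per the labels' protocols. Reads were handled with TopHat, Cufflinks and Cuffdiff on build mm10, with FastQC 0.73, per the submitters' processing notes. Settings are not given in the sources used here. The authors deposited 1 table, laid out as a Cuffdiff gene test per the file headers, with 1 FPKM value per group and a test statistic (a score). The p-value and q-value of each locus are the authors' deposited ones. Its GFP exo column was matched to MEK1-low through the treatment label. The deposited fold change column holds error texts and was not used.

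Fold changes were computed with Python 3.11.15 and pandas 2.3.3 from the FPKM values. Medians used log2(FPKM + 1). Symbols matched 99.5% of 55082 identifiers, and gene positions are from GENCODE M21 on the same build. Table starts count from 0. Fold changes and motif searches were checked only on set fold changes and on motifs planted in random A and T bases. Such checks show that set values are recovered and do not measure noise or false matches. The 10 genes, the 6 lists and the motifs were chosen with earlier results of these data known. From each list the text names up to 6 called genes and the 2 of highest level, and says which others were named after their values were seen. Protein sequences were not used here, and the planned comparison of paired enzymes was not made. A further planned list is not reported here. Alternatives covered thresholds, pseudocounts, level minimums, scaling and joined loci.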

Additional observations from a re-analysis of the deposited data

How the results depend on the processing

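The count of called genes among the 10 kept its value of 1 under all 5 alternatives run (q-value thresholds of 0.01 and 0.1, an absolute test statistic of at least 2, and level minimums of 1 and 5 FPKM). The minimums were applied to called genes only. They could not change this count, since Scd2 had a test statistic of 2.99 and stood at 26.8 FPKM with MEK1-hi exosomes. The sign of each gene's log2 fold change was kept in all 30 recomputed values, with a pseudocount of 1, scaling to the same total (a shift of 0.04 in log2) and centring. A pseudocount cannot change a sign. The centring shift of 0.0009 was smaller than the smallest change, 0.0167 for Elovl6. The scaling raised each value by 0.0435, less than the size of the smallest negative change, -0.0490 for Elovl5. The kept signs were therefore fixed by the sizes of these shifts. The median of the 10 moved by under 0.05 in all 7 alternatives, the tolerance used for medians. For the lists, 33 of 36 counts stayed within 1.5 times and 46 of 48 medians within that tolerance. Beta-oxidation and mitochondrial synthesis held 0 called genes, so only the looser q-value of 0.1 could have changed their counts. SREBP regulators going from 3 to 2 at a q-value under 0.01 counts as kept. So does a median that changed sign within the tolerance. With scaling, SREBP regulators went from -0.0385 to 0.00386 and beta-oxidation from -0.0405 to 0.000882. Without joined loci, glycerolipid assembly went from 0.031 to -0.0142. Leaving out joined loci, an alternative chosen after seeing the data, left 1 called gene among SREBP regulators, Insig1, since the loci of Srebf2 and Nr1h3 are joined. A minimum of 5 FPKM left 0 called genes of acetyl-CoA and NADPH supply, because Pcx lies below it, and moved that list's median to -0.0201. A q-value under 0.01 left 1 called gene of activation and glycerolipid assembly. With untested loci included, the median of the other elongation and desaturation enzymes was -0.0174. The deposited fold change column was not run as an alternative. No sample could be left out, and no paired analysis was possible because the columns carry 1 value per group and no replicate numbers. Depth is unknown, which limits the genes near 1 FPKM most.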

Other observations

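Genes beside the desaturase clusters on chromosome 19 were looked at after the values of Scd2 and Fads2 had been seen. Beside the Scd cluster, Cwf19l1 was at 9.43 FPKM with MEK1-hi and 9.43 FPKM with MEK1-low exosomes, and Bloc1s2, of a complex that builds lysosome-related organelles, at 13.9 FPKM with MEK1-hi and 13.6 FPKM with MEK1-low exosomes. On the other side, Wnt8b was listed at 0 in both groups. The joined locus of Sec31b and Ndufb8 was at 249 FPKM with MEK1-hi and 247 FPKM with MEK1-low exosomes. None of the tested ones was called by Cuffdiff (q of at least 0.9988 in the authors' deposited table).

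Beside the Fads cluster, Rab3il1, which encodes an exchange factor for Rab GTPases, rose with MEK1-hi exosomes. It was at 74.8 FPKM with MEK1-hi and 51.9 FPKM with MEK1-low exosomes, a log2 fold change of 0.53 (q = 0.0288 in the authors' deposited table). Best1, which encodes a chloride channel, lies next to it and had the opposite sign, at 0.811 FPKM with MEK1-hi and 1.71 FPKM with MEK1-low exosomes, or -1.08 in log2 fold change, and was not called (q = 0.867 in the authors' deposited table). Fth1, the ferritin heavy chain gene, was at 27600.2 FPKM with MEK1-hi and 37967 FPKM with MEK1-low exosomes (q = 0.711 in the authors' deposited table). Fen1, which trims flaps of DNA in replication, was at 14.02 FPKM with MEK1-hi and 12.3 FPKM with MEK1-low exosomes, and Tmem258 at 117 FPKM with MEK1-hi and 124 FPKM with MEK1-low exosomes. Both had q = 0.999 in the authors' deposited table.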
